A study of Mus musculus with 14 samples.

Results

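The cytosolic ribosomal protein genes were followed in RNA sequencing of mouse male germ cells that lack or carry a working Dnmt3C. A gene was a member if its symbol was Rpl or Rps followed by digits and a suffix of at most 2 letters or digits, or was Rplp0, Rplp1, Rplp2 or Rpsa, without the symbols ending in -ps, the Rps6k kinases, Rpl10l and Rpl39l. The rule took 90 of the 38444 genes in the count tables. Of the 90 members, 83 were annotated as protein coding and the others as processed pseudogenes, 86 lay on autosomes, and 4 (Rpl10, Rpl36a, Rpl39 and Rps4x) lay on the X chromosome. All 90 were present in both tables and passed the filter on low counts in each of the 5 comparisons.

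DNMT3C is a rodent de novo DNA methyltransferase that methylates the promoters of young retrotransposons in fetal male germ cells. Dnmt3C KO/KO mice (KO) and wild-type littermates (WT), all on the C57Bl6/J background, gave sorted spermatogonia (Spg, 3 libraries per genotype) and sorted spermatocytes (Spc, 4 libraries per genotype). Spg were taken as live cells negative for β2-microglobulin and positive for Ep-CAM, and Spc were sorted on DNA staining from older mice, so stage, age and sorting method cannot be told apart. The KO is constitutive, KO germ cells arrest at pachytene, and the WT Spc sort also took later meiotic cells.

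Ribosomal proteins assemble with ribosomal RNA in the nucleolus into the large subunit, which joins amino acids, and the small subunit, which reads the mRNA. Each protein is present in a single copy per ribosome except for those of the stalk, so their genes are usually expressed together, and their mRNAs carry a pyrimidine tract at the 5′ end through which mTOR signalling controls their translation. In male meiosis the X chromosome is silenced at pachytene, and several X-linked ribosomal protein genes have autosomal copies used by male germ cells, among them Rpl10l and Rpl39l.

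The coding sequences of Rpl39, whose product lines the tunnel through which new protein leaves the ribosome, and of its autosomal copy Rpl39l are shown because this pair had among the clearest exchanges of one copy for the other. The genes lie at chrX:37082520-37085402 on the minus strand and at chr16:10170226-10174911 on the plus strand (GRCm38, GENCODE M21), and capitals mark the 23 of 156 bases at which the sequences differ (identity 85.3%).
Rpl39: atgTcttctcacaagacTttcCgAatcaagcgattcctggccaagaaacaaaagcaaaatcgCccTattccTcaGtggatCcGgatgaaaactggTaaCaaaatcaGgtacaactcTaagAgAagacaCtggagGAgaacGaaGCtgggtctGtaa
Rpl39l: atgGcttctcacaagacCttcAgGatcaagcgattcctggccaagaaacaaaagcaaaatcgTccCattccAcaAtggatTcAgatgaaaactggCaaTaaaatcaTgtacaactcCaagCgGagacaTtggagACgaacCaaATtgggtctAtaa

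Most differences between the 2 genes lay after a long identical stretch in the first part of the frame. Of the stretches of 100 bases in the Rpl39 transcript, 1.75% were shared with another annotated transcript, and none in Rpl39l were. The same held less well for other members. Of the 90, 82 shared at least 1 such stretch with another transcript and 37 shared over 50% of them, with 91.6% for Rpl10, 83.6% for Rpl36a, 80.1% for Rpl24 and 34.8% for Rps4x. The counts of these members are uncertain to that extent, since the counting could divide a read among its matches. The 254 pseudogene rows named after members held 0.712 to 1.13 counts for every 100 counts of the members, and adding them to their parents left 15 members past the threshold in KO against WT Spc, as before.

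The start-site window of Rpl39l, whose level moved against that of its X-linked relative, is shown from 250 bases before to 20 bases after the start (RefSeq, GRCm38.p6, chr16:10169978-10170247, plus strand). Capitals mark CCGGAAG, the core of sites bound by ETS factors, and CTTTCC, a pyrimidine motif.
Rpl39l: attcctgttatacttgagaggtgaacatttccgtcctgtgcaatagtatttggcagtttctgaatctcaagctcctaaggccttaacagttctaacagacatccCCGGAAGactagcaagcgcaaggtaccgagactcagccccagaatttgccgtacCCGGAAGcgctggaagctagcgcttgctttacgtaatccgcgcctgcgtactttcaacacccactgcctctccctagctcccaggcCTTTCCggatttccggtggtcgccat
Over windows of 300 bases, 65 of the 90 members were matched to 77 start sites. CCGGAAG on either strand stood in 33.8% of these windows and in 8.86% of all 32851 windows, and CTTTCC on the given strand in 37.7% and 14.1%. The full palindromic site of NRF1 on either strand stood in 2.6% and 0.971%, and its member genes were Rpl37a and Rpl10a. These are counts of letters and show no binding.

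The 14 libraries held 40555726 to 53323651 counts each. The TMM factors, which scale libraries so that most genes are unchanged, were 0.605 to 0.851 in WT Spc and 1.05 to 1.24 in the other libraries, so the choice of scaling mattered for any comparison with WT Spc. Markers of pachytene and later meiosis (9 of 9 genes in the tables) summed to 6106 to 12330 CPM (counts scaled to a common library size) in WT Spc and to 87.1 to 245 in KO Spc. Spermatid markers (7 of 8 in both tables, none at 0 in Spc) summed to 474.5, 65.9, 1327 and 416 CPM in WT Spc replicates 1 to 4. In KO Spc they summed to 2.67 to 9.67 CPM, so WT Spc also held RNA of later stages, unevenly between libraries. The part of this RNA in the KO to WT Spc values was not tested. Markers of peritubular and stromal cells (5 of 5, none at 0) summed to 3232, 2214, 301 and 2745 CPM in KO Spc replicates 1 to 4, against 29.0 to 39.0 in WT Spc and 25.3 to 37.6 in Spg. Leydig cell markers (5 of 5) summed to 53.4 to 318 CPM in KO Spc and 13.9 to 29.5 in WT Spc, and macrophage markers (5 of 5) to 22.2 to 124 and 2.82 to 5.94. Replicates 1 and 4 of the Spc were more alike than any other pair, with a chi-square per degree of freedom of 11 in KO and 15.3 in WT against 113 to 289 for other Spc pairs, above the 1 that sampling noise gives. They were counted as separate samples as labelled, 4 Spc libraries per genotype, but the legends of the study speak of 3 biological replicates for these stages. Whether 1 and 4 share an animal, a sort or a batch is not given and was not tested. The members' calls with both summed to 1 sample are therefore also given for KO against WT Spc and for the difference of genotype effects. For the other gene lists they are not given. The Dnmt3c gene itself had 58 to 116 counts in KO Spg and 53 to 89 in WT Spg, and 52 to 57 in KO Spc and 11 to 28 in WT Spc. Its log2 fold change of KO over WT was 0.10 in Spg (adjusted p = 1) and 0.77 in Spc (adjusted p = 0.124), and since the deleted part is not given in the sources used here, these counts do not check the labels.

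Ribosomal protein genes took a small share of the gene counts in every library. The share was 2.79%, 2.59% and 3.63% in KO Spg (mean 3.002% ± 0.553, SD, n = 3) and 2.41%, 2.44% and 2.58% in WT Spg (2.47% ± 0.0901, n = 3). In Spc it was 1.99%, 3.48%, 2.43% and 1.88% in KO (2.45% ± 0.730, n = 4) and 1.41%, 1.82%, 1.65% and 1.24% in WT (1.53% ± 0.260, n = 4). In both stages every KO library thus stood above every WT library. The 95% Wilson intervals, which cover counting error only, reached at most 0.00549 points to either side. Once scaled by TMM the same counts summed to 16410 to 26780 CPM in KO Spc and 18910 to 26400 CPM in WT Spc, and the groups overlapped. In Spg the scaled sums were 22640, 20560 and 28970 CPM in KO replicates 1 to 3 and 19390, 18960 and 21520 CPM in WT, higher in KO in each of the 3 pairs of equal number, with overlap between the groups. The order of KO and WT Spc therefore depended on the scaling, and in these bulk samples fewer cells of a type and less RNA per cell cannot be told apart.

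**Figure D1:**
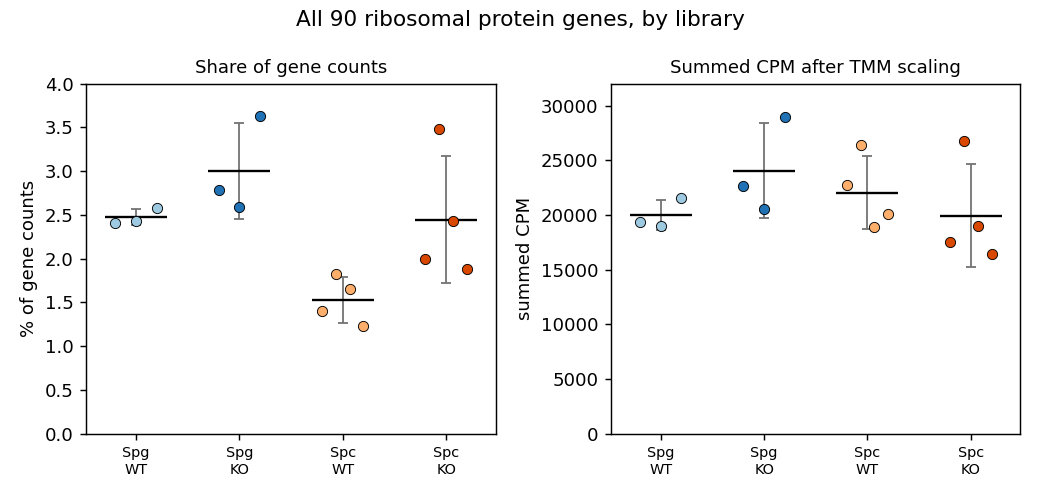
Left, percent of gene counts from the 90 ribosomal protein genes, and right, their summed CPM after TMM scaling, for each library (points) with the group mean (line) and SD (bars). In Spc the KO libraries lie above the WT libraries on the left (1.88% to 3.48% against 1.24% to 1.82%), and on the right the KO range of 16410 to 26780 CPM spans the WT range of 18910 to 26400 CPM.

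The 4 X-linked members had the clearest pattern of the family. Each was lower in every WT Spc library than in any KO Spc or Spg library. Their counts made up 1.13% to 1.39% of all member counts in Spg, 1.48% to 3.72% in KO Spc and 0.0609% to 0.344% in WT Spc.

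Rpl10, a late-joining protein of the large subunit, was at 267, 190, 126 and 239 CPM in KO Spc and at 6.51, 20.3, 31.1 and 5.77 CPM in WT Spc. In Spg it was at 132, 133 and 166 CPM in KO and 113, 101 and 143 CPM in WT. The lowest KO Spc library was above the highest WT Spc library, and among the WT Spc replicates 2 and 3 stood above 1 and 4. Rpl10 was 13.3-fold higher in KO than in WT Spc (log2 fold change 3.73, SE 0.55, adjusted p = 0.000244).

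Rpl39 was at 71.1, 56.2, 28.3 and 59.9 CPM in KO Spc and at 2.07, 6.27, 9.20 and 1.04 CPM in WT Spc. Its Spg levels were 32.4, 35.1 and 41.7 CPM in KO and 22.9, 24.4 and 30.3 CPM in WT. KO Spc thus reached from the level of Spg to above it, and WT Spc stayed under every other library. The difference between KO and WT Spc was 11.9-fold (log2 3.58, SE 0.63, adjusted p = 0.000708).

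Rpl36a, a further large-subunit protein, was at 88.9, 124, 90.8 and 82.2 CPM in KO Spc and at 2.13, 14.8, 16.7 and 1.91 CPM in WT Spc. In Spg its levels were 100, 98.4 and 138 CPM in KO and 77.4, 70.4 and 90.9 CPM in WT. WT Spc replicates 2 and 3 were again the higher WT libraries, and KO Spc overlapped Spg. The KO to WT difference in Spc was 11.2-fold (log2 3.49, SE 0.68, adjusted p = 0.00126).

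Rps4x, the small-subunit member of the X-linked genes, was at 225, 94.0, 35.4 and 195 CPM in KO Spc and at 4.51, 6.27, 8.03 and 3.51 CPM in WT Spc. In Spg it was at 50.3, 15.6 and 26.8 CPM in KO and 34.7, 18.2 and 15.6 CPM in WT. Its KO Spc libraries spread more than those of the other X-linked members, with replicates 1 and 4 high. The KO to WT difference in Spc was the largest of the 90 members, 25.1-fold (log2 4.65, SE 0.57, adjusted p = 9.05e-05).

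The 4 X-linked members stayed past the threshold in KO against WT Spc in all 19 alternative analyses, Spc replicates 2 and 3 alone included. X-linked genes as a whole were also higher there, 621 higher and 72 lower of 912 tested with a median log2 fold change of 2.98, beside 3.66 for the 4 members. The stromal marker sum in KO Spc was lowest in replicate 3, where it was still 301 CPM against 29.0 to 39.0 in WT Spc. In that library Rpl10 was at 126 CPM and Rps4x at 35.4 CPM, beside WT Spc maxima of 31.1 and 8.03 CPM. Over the KO Spc replicates Rpl10, Rpl39 and Rps4x had the order of the stromal sums, and Rpl36a did not. Sertoli cell markers (6 of 6, none at 0) summed to 294, 102, 69.0 and 261 CPM in KO Spc replicates 1 to 4. This was also the order of Rpl10, Rpl39 and Rps4x. In WT Spc these markers summed to 35.6, 35.5, 103 and 30.7 CPM. In Spg they summed to 405, 159 and 128 CPM in KO and 335, 160 and 89.3 CPM in WT, and replicate 1 was highest in both genotypes for these markers and for Rps4x. The part of the stromal and Sertoli cells in the levels of the X-linked members was not tested. The spermatogonia markers (10 of 10, none at 0) summed to 464, 1161, 1144 and 456 CPM in KO Spc replicates 1 to 4 and to 174, 387, 440 and 168 CPM in WT Spc, beside 1217 to 1865 CPM in Spg. Every KO Spc library was above every WT Spc library, KO replicate 3 included, and in WT Spc the sum was higher in replicates 2 and 3, as for the X-linked members. The part of these cells in the X-linked levels was not tested.

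**Figure D2:**
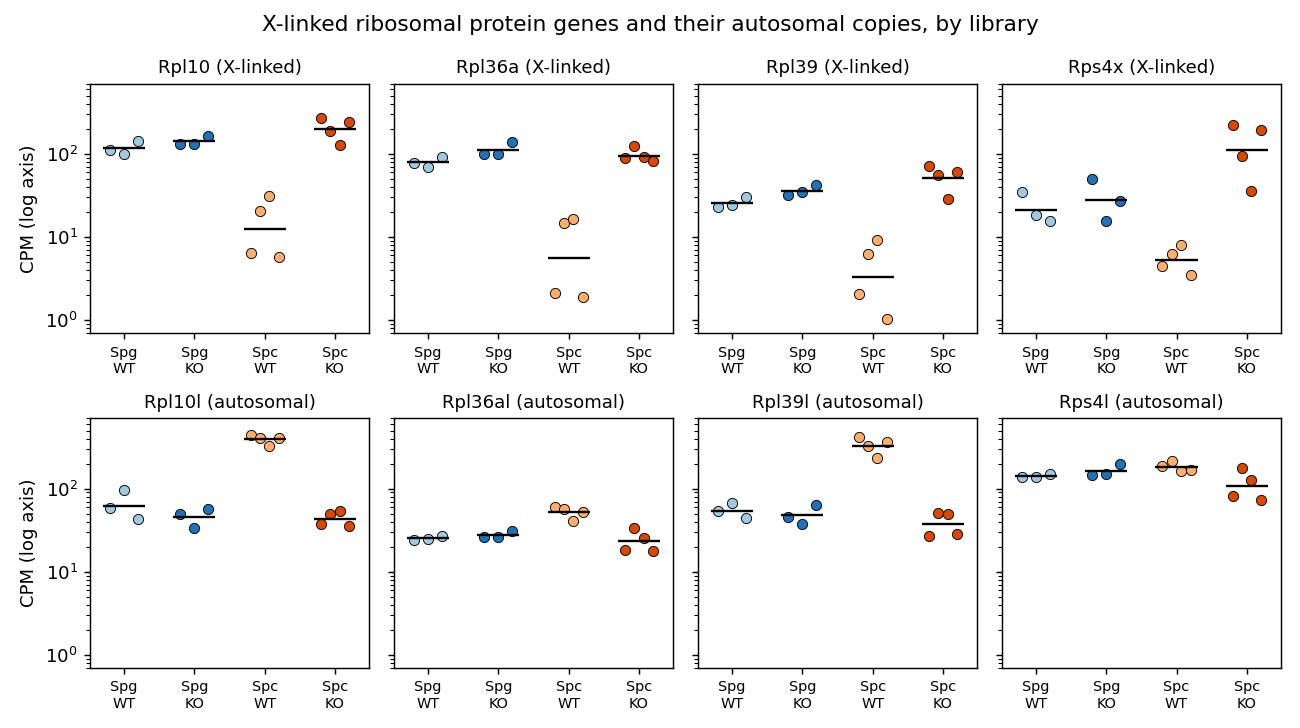
CPM on a log axis of the 4 X-linked ribosomal protein genes (top) and their autosomal copies (bottom) in each library, with the geometric mean of each group as a line. WT Spc lie lowest for each X-linked gene (at most 31.1 CPM), while Rpl10l and Rpl39l are highest there.

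Each X-linked member was set beside an autosomal copy: Rpl10l (chr12:66283379-66284401, minus strand), Rpl36al (chr12:69182731-69184083, minus), Rpl39l (above) and Rps4l (chr6:148354656-148355598, plus, annotated as a transcribed processed pseudogene). Rpl10l and Rpl39l, which the rule leaves out, moved the other way from their X-linked relatives. Rpl10l was at 444, 408, 326 and 407 CPM in WT Spc and 37.1, 48.9, 54.3 and 35.9 CPM in KO Spc, and fell by 3.15 on the log2 scale in KO (adjusted p = 4.54e-06). Rpl39l was at 413, 323, 237 and 367 CPM in WT Spc and 27.1, 50.5, 49.3 and 28.7 CPM in KO Spc, and fell by 3.09 (adjusted p = 2.26e-05).

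Rpl36al was at 59.3, 56.5, 40.5 and 52.4 CPM in WT Spc and 18.5, 33.8, 25.7 and 18.0 CPM in KO Spc, a fall of 1.104 on the log2 scale (adjusted p = 0.00441). Rps4l was at 189, 218, 164 and 167 CPM in WT Spc and 81.5, 175, 126 and 73.8 CPM in KO Spc, with a log2 difference of -0.67 that did not pass (adjusted p = 0.0495). For Rps4l the highest KO library lay within the WT range, and for the other 3 copies the groups did not overlap.

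Counted within each library, the X-linked copy gave 81.1% ± 8.3 (SD, n = 4) of the Rpl10 and Rpl10l counts in KO Spc and 4.08% ± 3.5 in WT Spc. The share of Rpl36a was 80.3% ± 2.4 and 14.2% ± 13, that of Rpl39 57.3% ± 16 and 1.61% ± 1.6, and that of Rps4x 50.7% ± 26 and 2.96% ± 1.2. These shares need no scaling between libraries. Each difference had p = 0.0286 in a two-sided exact permutation test, the smallest p that 4 against 4 libraries allow, and 0.0572 after Benjamini-Hochberg adjustment over the 8 tests. In Spg the 4 exact permutation p-values were 0.1 to 0.6, where 3 against 3 libraries cannot go below 0.1. This test was chosen after the data had been seen, and with replicates 1 and 4 counted once it could not go below 0.1.

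The summed levels of KO and WT Spc did not overlap under either scaling for 2 of the 4 pairs. Rpl39 and Rpl39l together were at 246 to 415 CPM in WT Spc and 77.6 to 107 CPM in KO Spc, and for Rpl36a and Rpl36al the order was opposite, 54.3 to 71.3 CPM in WT Spc and 100 to 158 CPM in KO Spc. Rpl10 and Rpl10l were at 357 to 451 and 181 to 305 CPM, and Rps4x and Rps4l at 171 to 224 and 162 to 306 CPM with overlap. As CPM of the library total, with no TMM factor, Rpl10 and Rpl10l overlapped, at 249.5 to 302 in WT Spc and 211 to 319 in KO Spc, while Rps4x and Rps4l did not, at 103 to 151 and 189 to 330. This scaling of the sums was added after the data had been seen.

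Across the whole family, KO and WT Spc differed at 15 of the 90 members, 6 higher and 9 lower in KO. Of all 21919 genes tested, 58.8% were called, 28% higher and 30.7% lower. The members' median log2 fold change was -0.06, beside 0.11 for all genes, and 86.7% of members but 31.2% of all genes lay within 1 log2 unit of no change. Libraries of KO and WT did not overlap for 20 of 90 members and for 67.4% of 21521 genes. Without the X-linked members, 2 of 86 were higher and 9 lower, with a median of -0.11.

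The 9 lower members were Rpl24, Rpl36al, Rpl29, Rpl11, Rps13, Rplp0, Rps7, Rps20 and Rpl30, with log2 fold changes from -1.19 to -0.75. Rpl24, a large-subunit protein at the interface with the small subunit, was at 68.2, 90.7, 60.8 and 59.4 CPM in KO Spc and 189, 182, 117 and 156 CPM in WT Spc (log2 -1.19, SE 0.23, adjusted p = 0.00103). Rpl11, which can bind and inhibit Mdm2 when ribosome assembly is disturbed, was at 163, 188, 123 and 148 CPM in KO and 353, 370, 241 and 316 CPM in WT (log2 -1.02, SE 0.21, adjusted p = 0.00161). Neither gene's groups overlapped, and in both genes replicate 3 was the lowest WT library.

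Rpl29, a large-subunit protein, was at 142, 203, 143 and 132 CPM in KO Spc and 370, 376, 258 and 318 CPM in WT Spc (log2 -1.08, SE 0.21, adjusted p = 0.00126). Rps13, of the small subunit, was at 116, 173, 129 and 107 CPM in KO and 310, 294, 197 and 269 CPM in WT (log2 -1.01, SE 0.22, adjusted p = 0.00256). Rps20, also of the small subunit, fell by 0.78, Rps7 by 0.88 and Rpl30 by 0.75. For all of these members KO replicate 2 was the highest KO library. Of 19 alternative analyses, Rpl24, Rpl29 and Rpl11 lost the call in 3, Rps13 in 5, Rps20 in 7, Rplp0 in 8, Rpl36al in 9, and Rps7 and Rpl30 in 10, with the sign kept.

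Beside the X-linked genes, Rps3a1 and Rpl7l1 were higher in KO Spc. Rps3a1, of the small subunit, was at 343, 482, 380 and 315 CPM in KO Spc and 184, 221, 208 and 157 CPM in WT Spc (log2 1.01, SE 0.19, adjusted p = 0.00111). Rpl7l1, a nucleolar relative of Rpl7, was at 114, 130, 144 and 118 CPM in KO and 62.9, 97.6, 80.2 and 57.1 CPM in WT (log2 0.79, SE 0.20, adjusted p = 0.0052). Neither gene's groups overlapped. Rpl7l1 lost the call in 9 of 19 alternatives (adjusted p up to 0.109) and Rps3a1 in 1.

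Scaling by library totals raised the all-gene median in this comparison from 0.11 to 0.79, and then 27 members were higher and none lower, beside 8074 higher and 4880 lower of all 21919 genes. The members' median of 0.67 stayed below that of all genes. With replicates 1 and 4 summed, 5 members were higher (the X-linked genes and Rps3a1) and 0 lower, beside 39.3% of all genes called, and none of the 9 lower members passed (adjusted p = 0.0119 for Rpl24, the lowest). Without KO replicate 1 or KO replicate 4 there were 8 calls (5 higher, 3 lower), without WT replicate 1 there were 9 (5 and 4), without WT replicate 2 there were 12 (7 and 5), and without KO replicate 2 there were 23 (5 and 18), so the balance of directions rested on single libraries. With Spc replicates 2 and 3 alone only the 4 X-linked members were called, beside 23.8% of all genes, and with replicates 1 and 4 alone 22 were higher and 45 lower, beside 84.5% of all genes called.

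**Figure D3:**
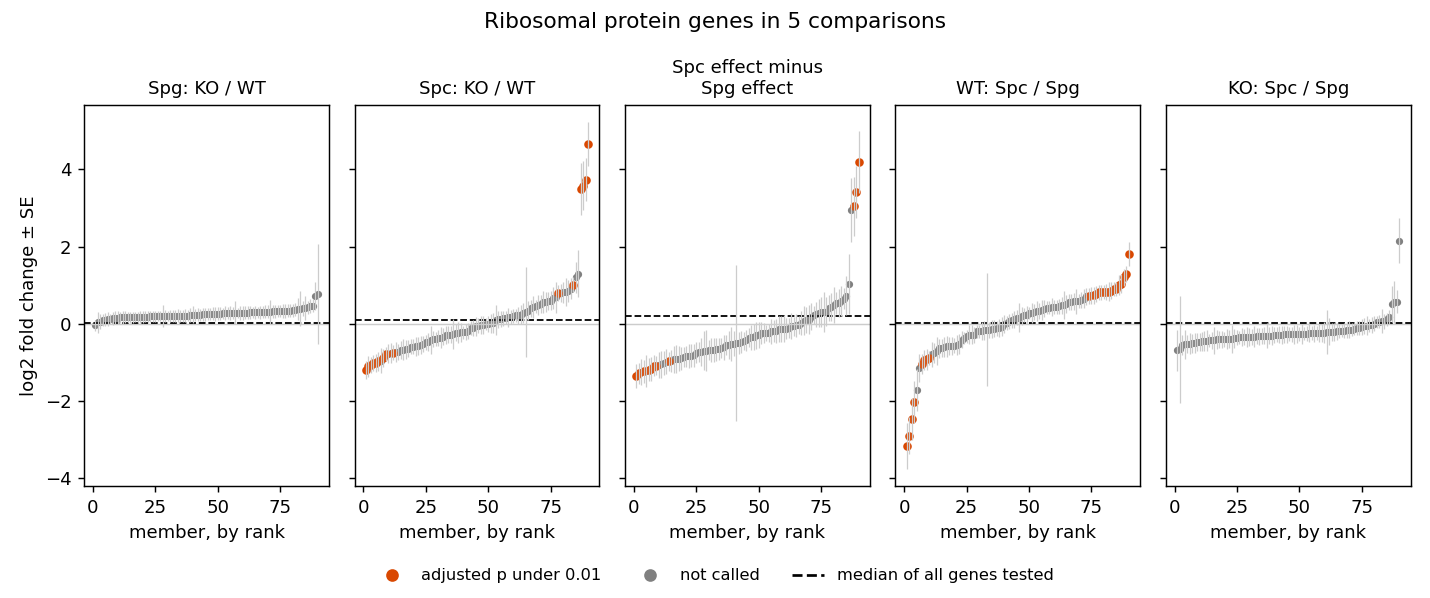
Log2 fold change ± SE of the 90 ribosomal protein genes, ranked, in 5 comparisons. Orange points passed an adjusted p of 0.01, and the dashed line is the median of all genes. The 4 X-linked members are the highest points of the Spc KO against WT panel and the lowest of the WT stage panel, and no point is orange for Spg or for the KO stage comparison.

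In Spg no member passed the threshold between KO and WT, in either direction, and 0.0436% of all 20659 genes did (0.0387% higher and 0.00484% lower). The members' values were close together, with a median log2 fold change of 0.25 (0.02 for all genes), 89 above 0 and 1 below. Without KO replicate 3 the members' median was 0.09, beside 0.03 for all genes. In edgeR 3 of 90 members had an unadjusted p under 0.05 (Rpl13a, Rpl36a and Rpl39), beside 1509 of all 20659 genes. DESeq2 also called 0 members, beside 2.49% of all genes. Markers of early meiosis (8 of 8) summed to 962 to 1296 CPM in KO Spg and 1307 to 1653 CPM in WT Spg, and those of pachytene and later meiosis (9 of 9) to 48.7 to 82.5 and 101 to 946 CPM. Neither pair overlapped, and their part in the members' values was not tested. The groups did not overlap for 13 of 90 members and for 12.2% of all genes.

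The largest value was that of Rps12l1 at 0.77 (adjusted p = 1), a processed pseudogene with at most 0.656 CPM in any library, followed by Rpl32l at 0.72 (adjusted p = 0.824), also a processed pseudogene and at 1.44 to 4.36 CPM in Spg. Rpl36a followed at 0.46 (SE 0.17, adjusted p = 0.503). The smallest values were -0.04 for Rpl29, 0.04 for Rps27rt and 0.06 for Rps27l, a p53-responsive relative of Rps27. KO replicate 3 was the highest Spg library in summed CPM, at 28970 beside 18960 to 22640 in the others. Without it the KO minus WT difference in the share of counts was 0.213 points in place of 0.528.

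The genotype effect was then compared between the stages in 1 model over all 14 libraries. It differed at 11 members, 3 higher in Spc than in Spg and 8 lower, while 11.1% of all 24340 genes were higher and 14.6% lower (25.7% in all). The 3 were Rps4x at 4.18 (adjusted p = 0.0015), Rpl10 at 3.42 (adjusted p = 0.0018) and Rpl39 at 3.04 (adjusted p = 0.00681). Rpl36a had a difference of 2.94 that did not pass (adjusted p = 0.0121). Over 25 alternatives Rpl10 kept the call in all, Rps4x lost it in 1 and Rpl39 in 9, while Rpl36a passed in 12, so Rpl39 and Rpl36a fell on different sides of the threshold only in some settings. Rpl10l and Rpl39l differed by -2.68 and -2.94.

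The 8 with a lower effect in Spc were Rpl24 at -1.36, Rpl11 at -1.28, Rps13 at -1.23, Rps7 at -1.18, Rplp0 at -1.17, Rpl29 at -1.09, Rps20 at -1.09 and Rpl30 at -0.97. Rpl36al at -1.25 had an adjusted p of 0.01, just short of the threshold. Each of the 8 was also lower in KO Spc when the Spc were tested alone, which uses the same Spc libraries. Of 25 alternatives, Rplp0 lost the call in 19, Rps7 and Rpl30 in 17, Rpl29 in 15, Rps13 in 14, Rps20 in 11, Rpl24 in 10 and Rpl11 in 7. Scaling by TMM without TE subfamilies gave 4 higher and 6 lower. Scaling by library totals gave 6 higher, 2 of them autosomal, and 0 lower, beside 4252 higher and 1733 lower of all 24340 genes. With that scaling the all-gene median went from 0.2 to 0.9, and the members' median was 0.35. With replicates 1 and 4 summed only Rpl10 and Rps4x passed, beside 14.8% of all genes. Leaving out single libraries gave 2 to 23 calls, the most without WT Spc replicate 3. No lower member was left without KO Spg replicate 1 or 3 or WT Spg replicate 1 or 3, and calls of lower members outnumbered the others in 5 of 14 such fits.

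Between stages in WT, 24 members passed, 16 higher in Spc than in Spg and 8 lower, and 52.5% of all genes did, 29.2% higher and 23.3% lower. The median was 0.16 for the members and 0.02 for all genes, and 57 of 90 members had groups that did not overlap, beside 66% of genes. The balance of directions did not hold across settings. Scaling by TMM without TE subfamilies gave 12 higher and 13 lower, and more members were lower than higher in 10 of the 14 fits with 1 library left out, namely without any of the 7 KO libraries (7 to 13 higher and 10 to 19 lower) or any of the 3 WT Spg libraries (4 to 5 higher and 8 lower). In those 10 fits the all-gene median lay between -0.10 and -0.06. These tests use the same WT Spc libraries as the comparison with KO.

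The lowest were the X-linked members: Rpl36a was 8.93-fold lower in WT Spc than in WT Spg (log2 -3.16, SE 0.60, adjusted p = 0.000438), Rpl10 7.45-fold (log2 -2.90, SE 0.48, adjusted p = 0.000168), Rpl39 5.54-fold (log2 -2.47, SE 0.54, adjusted p = 0.00124) and Rps4x 4.08-fold (log2 -2.03, SE 0.55, adjusted p = 0.00523). Rps4x lost the call in 7 of 25 alternatives and the other 3 in none. Of all 985 X-linked genes tested, 560 were lower and 60 higher. The other lower members were Rps2 at -1.03, Rplp2 at -0.93, Rpl22 at -0.92 and Rps3a1 at -0.89.

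The highest member was Rpl22l1, at 104, 53.9, 41.9 and 90.4 CPM in WT Spc and 22.8, 19.3 and 20.4 CPM in WT Spg (log2 1.80, SE 0.31, adjusted p = 0.000221). Rpl22, which represses Rpl22l1 in other cells, was at 64.6, 122, 112 and 55.9 CPM in WT Spc and 147, 160 and 198 CPM in WT Spg (log2 -0.92, SE 0.28, adjusted p = 0.00984). Rpl22 lost the call in 5 of 25 alternatives, replicates 1 and 4 summed included (adjusted p = 0.0326), and Rpl22l1 kept it in all. Within WT Spc, the libraries with the most Rpl22l1, replicates 1 and 4, held the least Rpl22. These libraries were also the most alike and had lower spermatogonia marker sums than replicates 2 and 3. A link between the levels of Rpl22 and Rpl22l1 was not tested. In KO Spc Rpl22l1 was at 43.4, 32.4, 32.3 and 40.7 CPM and Rpl22 at 138, 219, 145 and 127 CPM, and their KO to WT differences of -0.96 (adjusted p = 0.0204) and 0.86 (adjusted p = 0.0196) did not pass.

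Rpl11 followed at 1.29 and Rpl24 at 1.20, the same members that stood among the lowest in KO Spc. Further higher members, Rpl36al, Rpl36, Rps20, Rpl9, Rps7, Rpl41, Rps13, Rpl30, Rpl29, Rpl31, Rps27 and Rplp0, among others, had values from 0.74 to 1.04. Of 25 alternatives, the call was kept in 3 for Rplp0, 5 for Rps27, 6 for Rpl41, 12 for Rps13, and 14 for Rps7 and Rpl36. For the rest of those named it was kept in 15 to 23. Scaling by library totals moved the all-gene median from 0.02 to -0.76, after which 39 members were lower and 1 (Rpl22l1) higher, beside 8724 lower and 4541 higher of all 24340 genes, and 7 of the members just named had a value below 0. Without WT Spg replicate 1 or 3, 12 members passed (4 higher, 8 lower), without WT Spg replicate 2, 13 (5 and 8), and without WT Spc replicate 1, 15 (11 and 4).

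In KO no member passed between stages, beside 3.05% of all 24340 genes (3.01% higher and 0.037% lower). The median was -0.27 for the members and 0.02 for all genes, with 79 of 90 members below 0. In edgeR 3 of 90 had an unadjusted p under 0.05, beside 5962 of all 24340 genes. Groups did not overlap for 2 of 90 members, beside 26.4% of genes. DESeq2 called 1, beside 9.62% of all genes. The largest values were 2.15 for Rps4x (adjusted p = 0.0359), 0.57 for Rpl22l1 and 0.57 for Rpl39, and the smallest -0.69 for Rpl3l, -0.66 for Rps12l1 and -0.54 for Rps4l. With Spc replicates 1 and 4 alone, 2 members were higher and 25 lower, beside 20.3% of all genes called.

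**Figure D4:**
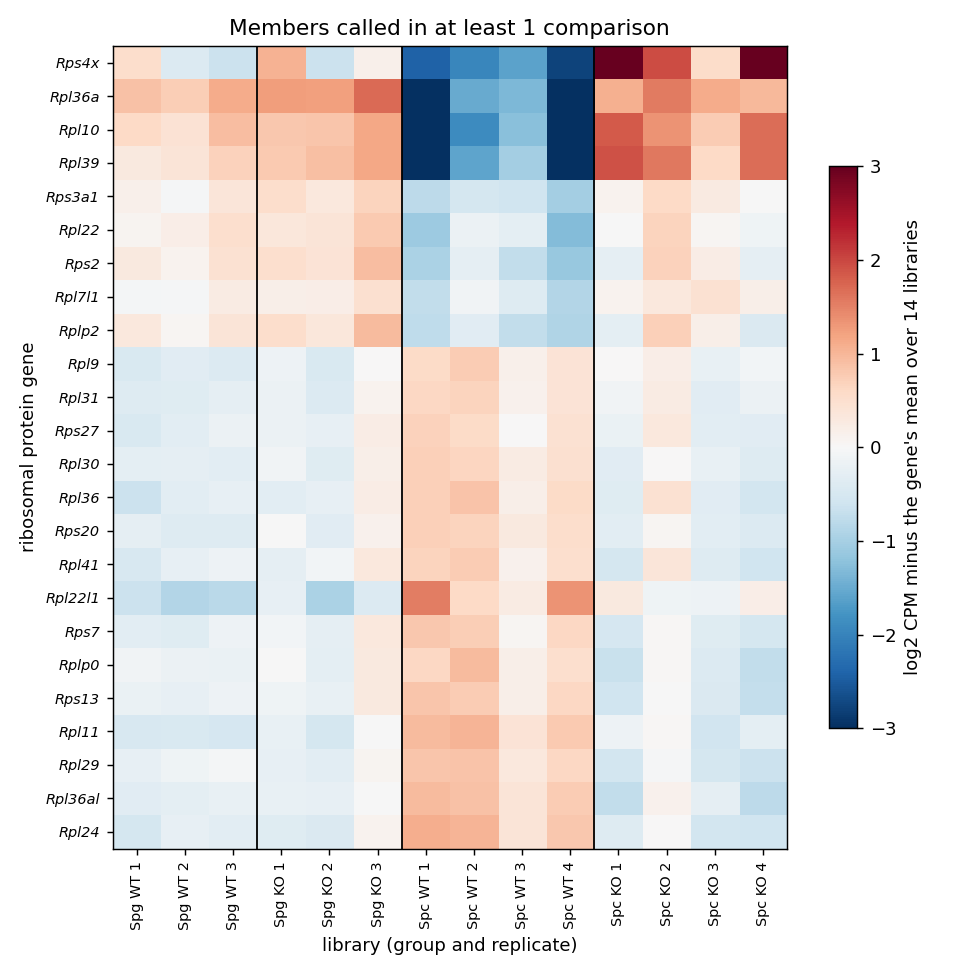
Log2 CPM minus the gene's mean over the 14 libraries (colour) for 24 ribosomal protein genes that passed an adjusted p of 0.01 in at least 1 comparison, by library, with colours saturating at 3 to either side. The 4 X-linked genes are lowest in the WT Spc columns, and most other rows are highest there.

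Of the mRNAs for the stalk, the part of the large subunit that recruits elongation factors, that of Rplp0 passed between KO and WT Spc and the others did not. Rplp0, which encodes its base, was at 612, 1002, 738 and 585 CPM in KO Spc and 1504, 1870, 1110 and 1373 CPM in WT Spc (log2 -0.97, SE 0.24, adjusted p = 0.00496). Rplp2 was at 230, 458, 318 and 208 CPM in KO and 166, 220, 168 and 150 CPM in WT (log2 0.81, SE 0.26, adjusted p = 0.0178), and Rplp1 at 278, 498, 304 and 246 CPM and 249, 347, 257 and 218 CPM (log2 0.34, adjusted p = 0.245). Among these 3 genes only the groups of Rplp0 did not overlap, and a difference between the genes was not tested. The call of Rplp0 was lost in 8 of 19 alternatives, library totals included (log2 -0.24, adjusted p = 0.397). From WT Spg to WT Spc Rplp0 rose by 0.74 and Rplp2 fell by 0.93, but Rplp0 had a value of -0.09 under library totals and fell short of the threshold in 21 further alternatives of 25. Rpsa, the small-subunit protein also known as the laminin receptor, was at 386, 771, 481 and 362 CPM in KO Spc and 279, 452, 298 and 248 CPM in WT Spc (log2 0.68, adjusted p = 0.0514).

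Among the paralogs of other members, Rpl7l1 and Rpl36al differed between KO and WT Spc as above. Rpl3l, a muscle relative of Rpl3, stayed at 0.278 to 3.26 CPM in every library, and Rpl3 at 248 to 464 CPM. Rps27l was at 48.5 to 100 CPM with log2 -0.02 between KO and WT Spc, while Rps27, which shares 76.1% of its coding bases, was at -0.55 (adjusted p = 0.0471). The pseudogene members Rps3a2 and Rps3a3, at 0.864 to 5.44 CPM, had values of 0.82 and 1.20 in KO against WT Spc that did not pass (adjusted p = 0.0635 and 0.0194), where their parent Rps3a1 was at 1.01. Rpl37rt, Rps27rt, Rpl6l, Rpl32l and Rps12l1 reached at most 7.09 CPM in any library, and none passed in any comparison, beside levels of 95.5 to 227 CPM for Rpl37 and 233 to 426 CPM for Rpl6.

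Levels per kb of exon allowed the members to be ranked within a group. In WT Spg, Rplp1 at 637 CPM per kb and Rplp0 at 525 had the highest medians, and both were among the 3 highest in KO Spg and KO Spc. In WT Spc the order was Rplp0 at 867, Rpl36 at 526 and Rplp1 at 507 CPM per kb. Rps12l1, Rpl3l and Rpl6l were lowest in all 4 groups, at 0.174 to 2.89 CPM per kb. The rank of Rpl10 went from 65 of 90 in WT Spg to 81 of 90 in WT Spc, with 45 of 90 in KO Spc. Rank depended on the length used: with the principal transcript, Rps28 led in both Spg groups and in KO Spc and Rpl41 in WT Spc. The ratio of the 90th to the 10th percentile of the levels was 24.8 in WT Spg and 52.0 in WT Spc per kb of exon, and 14.1 and 78.0 with the principal transcript, so the change of length lowered the ratio in WT Spg and raised it in WT Spc. Over the protein-coding members alone the ratio was 7.70 per kb of exon and 4.82 with the principal transcript in WT Spg, and 11 and 5.96 in WT Spc.

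Other genes of ribosome production and translation were counted from fixed lists. In KO against WT Spg none of the 6 lists had a called gene, and in KO Spc against KO Spg only Myc was called (log2 6.11, adjusted p = 0.00142). Fau and Rack1, which add further parts to the small subunit, did not pass in KO against WT Spc (log2 -0.55, adjusted p = 0.0471, and log2 0.05, adjusted p = 0.866).

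The 79 mitochondrial ribosomal protein genes, which make the separate ribosome of the mitochondrion, had 2 higher and 33 lower in KO against WT Spc. Their median was -0.72, beside 0.11 for all genes, of which 28% were higher and 30.7% lower. Mrpl39 at -2.84 and Mrpl24 at -2.62 were the most significant. From WT Spg to WT Spc 33 were higher and 3 lower, 45.6% called beside 52.5% of all genes (29.2% higher and 23.3% lower). Under library totals the Spc counts became 6 higher and 13 lower and those between WT stages 11 and 15, while the distance of the median from that of all genes went from -0.83 to -0.78 in Spc.

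Of 22 translation factor genes and relatives with terminal oligopyrimidine mRNAs, 4 were higher and 8 lower in KO Spc (median -0.64), among them Pabpc1, the cytoplasmic poly(A)-binding protein, at -2.34, Btf3 at -2.10, and the RNA-binding protein gene Hnrnpa1 at 2.52. Library totals turned this to 7 higher and 3 lower, beside 8074 higher and 4880 lower of all 21919 genes. The distance of the median from that of all genes went from -0.75 to -0.71. Of 48 ribosome assembly and nucleolar genes, 14 were higher and 10 lower (median 0.44), with Rrp1 at -3.21, Polr1d, a subunit shared by RNA polymerases I and III, at -2.203, and the X-linked nucleolar GTPase gene Gnl3l at 4.65. Under library totals 25 were higher and 6 lower, with the distance of the median from that of all genes at 0.33 under both scalings.

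Of 23 regulators of ribosomal protein mRNA synthesis and translation, 11 were higher and 3 lower in KO Spc (median 1.01). Library totals gave 18 and 1 (median 1.63), and the distance of the median from that of all genes went from 0.9 to 0.84. Myc was at 6.62, Akt1 at 2.201 and Gabpa, an ETS factor, at 1.77, while Larp1, which binds the pyrimidine tract, was at -2.18 and Mtor at -1.301. Of 12 ribosome quality control genes tested, 2 were higher and 4 lower (3 each way with library totals), with the recycling factor gene Abce1 at 1.75 and Edf1, a sensor of collided ribosomes, at -2.04. Called shares of these 4 lists and of the mitochondrial list were 44.3% to 60.9%, beside 16.7% for the ribosomal protein genes and 58.8% for all genes. The stromal, Leydig and macrophage marker sums given above were higher in every KO Spc library than in any WT Spc library. Their part in these list values was not tested.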

How the data were processed

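RNA of sorted Spg (3 KO, 3 WT) and Spc (4 KO, 4 WT) had been made into polyA-selected, stranded libraries. The authors trimmed reads with cutadapt 4.0, aligned them to GRCm38 with STAR 2.7.3a (versions from the submitters' processing notes) keeping multiple matches, and counted genes and transposable element (TE) subfamilies with TEtranscripts, which divides a read among its matches. The deposited tables hold counts per gene and TE subfamily and the authors' own fold changes and p-values (DESeq2 1.44.0), which were not used. TPM tables were not used here. A few single-gene values are not reported here. A further Spg library per genotype, excluded by the authors, was not analysed here.

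Counts were fitted with edgeR 4.0.16 (R 4.3.3, limma 3.58.1, quasi-likelihood test, filterByExpr, TMM over genes and TE subfamilies), with Benjamini-Hochberg adjustment over all features tested and a call at an adjusted p under 0.01. KO and WT were compared within each stage from that stage's libraries, and the stage comparisons and the difference of genotype effects from all 14 libraries. CPM are TMM-scaled. Libraries held 40555726 to 53323651 counts, and 95% Wilson intervals cover counting error only. Exact permutation tests used SciPy 1.17.1 (Python 3.11.15), and figures matplotlib 3.10.9. The fits were tested on simulated counts with a fixed spread. Of genes changed by 1 log2 unit, 38.9% were recovered in Spg, 52.0% in Spc and 6.52% in the difference of genotype effects. Of genes changed by 2 units, 98.9%, 100% and 90.7% were recovered.

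The members and lists were chosen with earlier results of these data known. Genes named are the X-linked members and their copies, the members that are paralogs of another member, the stalk genes and Rpsa, the 3 largest and 3 smallest changes per comparison, the 3 highest and 3 lowest levels per kb, and called list genes with small p, and beyond these the members called in a comparison. Exceptions, named after their values were seen, are Rpl13a, Mtor and the genes of the motif counts.

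Alternatives were DESeq2 1.42.0, scaling by its size factors, by library totals or by TMM without TE subfamilies, other filters, pseudogene rows added to their parents, a replicate block, replicates 1 and 4 summed (the labels give 4 Spc libraries per genotype, the legends 3 biological replicates), each library left out, and, chosen after seeing the data, Spc replicates 1 and 4 or 2 and 3 alone and lengths of the principal transcript and pair sums scaled by library totals. The methods of the study speak of littermates, and no label ties a replicate number to a litter, so the pairing was checked. Deviations of KO and WT libraries with the same number correlated at 0.52, 0.17 and 0.18 in Spg. Unequal numbers gave -0.45 to 0.26 there, the highest for KO 2 with WT 3. The Spg numbers were taken to pair because each value for equal numbers was over 0.1. In Spc these values were 0.08, 0.21, -0.01 and 0.12, and the numbers were not taken to pair. Where nothing says that libraries came from separate animals, p-values measure only the spread between these samples, which may be technical. Gene positions and coding sequences are from GENCODE M21 and start-site windows from RefSeq (GRCm38.p6).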

Additional observations from a re-analysis of the deposited data

Results flagged for a closer look

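In KO Spc, replicate 2 stood far above the other 3 libraries for 4 members: Rpl29 at 202.6 CPM (next 142.8), Rpl36 at 174.3 (100.4), Rpl41 at 443.6 (264) and Rps20 at 259.9 (200.8). These were 4 of 90 groups of 4 libraries examined, and chance flags about 1 in 20. That library also had the highest share of gene counts from ribosomal protein genes, 3.48%.

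The genotype effect differed between Spc and Spg, by the test of the difference itself in edgeR (adjusted p under 0.01), for 13 of the genes named. The difference on the log2 scale was 4.18 for Rps4x, 3.42 for Rpl10 and 3.04 for Rpl39, all X-linked. It was -2.94 for Rpl39l, -2.68 for Rpl10l, -1.36 for Rpl24, -1.28 for Rpl11, -1.23 for Rps13, -1.18 for Rps7, -1.17 for Rplp0, -1.09 for Rpl29, -1.09 for Rps20 and -0.97 for Rpl30, all autosomal. Of 25 alternatives, the call was lost in 19 for Rplp0, 17 for Rps7 and Rpl30, 15 for Rpl29, 14 for Rps13, 11 for Rps20, 10 for Rpl24, 9 for Rpl39, 7 for Rpl11, 1 for Rps4x and 1 for Rpl10l. Stage, age and sorting method cannot be told apart in this difference.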

How the results depend on the processing

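For members past the threshold between KO and WT Spc (15 as reported), DESeq2 gave 23 (68.7% of all genes called in that fit), library totals 27 (59.1%), summing replicates 1 and 4 gave 5 (39.3%), a threshold of 0.05 gave 37 (72.6%), Spc replicates 1 and 4 alone 67 (84.5%) and replicates 2 and 3 alone 4 (23.8%). For the difference of genotype effects (11) the values were 6 under library totals (24.6% of genes), 2 with replicates 1 and 4 summed (14.8%), 30 at 0.05 (46.0%), 32 with replicates 1 and 4 alone (43.0%) and 3 with 2 and 3 alone (8.66%). For WT Spc against WT Spg (24) they were 40 under library totals (54.5%), 43 with 1 and 4 alone (59.4%), 8 with 2 and 3 alone (37.1%) and 46 at 0.05 (65.1%). For KO Spc against KO Spg (0), DESeq2 gave 1 (9.62%), a threshold of 0.05 gave 1 (8.39%) and replicates 1 and 4 alone 27 (20.3%). Leaving out single libraries gave 8 to 23 calls in Spc, 2 to 23 for the difference, 12 to 32 between WT stages, 0 to 1 between KO stages and 0 in Spg, and moved the KO minus WT share of counts between 0.573 and 1.11 points in Spc and 0.213 and 0.734 in Spg. The ratio of the 90th to the 10th percentile per kb in WT Spg was 14.1 with the principal transcript.

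Under library totals 7 named members higher in WT Spc than WT Spg had the opposite sign: Rpl29 at -0.018, Rpl30 at -0.013, Rplp0 at -0.0918, Rpl31 at -0.0181, Rps27 at -0.0731, Rps13 at -0.0199 and Rpl41 at -0.0056. These follow the construction of the scaling, which moves all genes, and the cause of the other changes was not tested. With the replicate block, calls were 0 in Spg, 15 (9 higher, 6 lower) in Spc, 9 for the difference, 20 between WT stages and 0 between KO stages, so pairing the libraries changed no Spg call. DESeq2 size factors, TMM on genes alone, both other filters and the added pseudogene rows kept every total within 1.5 times, but between WT stages the 16 higher and 8 lower became 12 and 13 under TMM on genes alone and 8 and 13 with no filter, and 4 to 13 and 8 to 19 in the 10 of 14 fits without 1 KO or WT Spg library. With replicates 1 and 4 summed no lower member passed between KO and WT Spc or in the difference. The KO against WT Spc calls of Rpl10, Rpl36a, Rpl39 and Rps4x held in all 19 alternatives. The 9 lower members all lost the call under library totals, with replicates 1 and 4 summed and with replicates 2 and 3 alone, 3 of them (Rpl24, Rpl29 and Rpl11) in no other alternative and the others in 5 to 10 of 19. Depth did not limit the shares, whose spread between libraries was far wider than their counting intervals.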
